A study of Mus musculus with 16 samples.

Results

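The MiT (microphthalmia) family of transcription factors has 4 members in the mouse, Mitf, Tfeb, Tfe3 and Tfec, and all 4 were found by gene symbol in the annotation of the Clariom S mouse array, among 21901 gene symbols. Each was represented by 1 transcript cluster, the set of probes from which 1 signal per gene is computed. Gene expression was measured in primary fibroblasts grown from tail skin explants of mice with mucopolysaccharidosis type I (MPS I), in which the lysosomal enzyme alpha-L-iduronidase is deficient. The mice were 6 to 8 weeks old, and the sources used here give neither their strain nor their mutant allele. Cells were exposed for 24 h to genistein (G), an isoflavone, at 60 or 120 µM, to kaempferol (K), a flavonol, at 60 or 120 µM, or to a 1:1 mixture of both at a total of 60 µM (30 µM of each) or 120 µM (60 µM of each). Control cultures received 0.05% or 0.1% DMSO. All cultures, the controls included, were MPS I cells, so that no comparison with healthy fibroblasts was possible. There were 8 groups of 2 arrays, 16 in all, and the labels call the arrays of a group biological replicates without saying whether they came from separate animals. P values therefore measure only the spread between these cultures.

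MiT factors are basic helix-loop-helix leucine zipper proteins that bind DNA as homodimers or as heterodimers with one another, at E-boxes such as CACGTG. In the promoters of lysosomal and autophagy genes this E-box lies within the CLEAR (coordinated lysosomal expression and regulation) element. TFEB, TFE3 and MITF are held in the cytoplasm when the kinase complex mTORC1 phosphorylates them at the lysosomal surface, and they enter the nucleus when that kinase is inactive, so that the amount of mRNA measured here and the activity of the protein are separate quantities. MITF is best known as the master regulator of melanocytes and also acts in osteoclasts and mast cells, TFE3 is expressed in most tissues, TFEB is the main regulator of lysosomal biogenesis, and mouse Tfec is known chiefly from macrophages.

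The signal of a transcript cluster is a log2 value normalised across arrays, and over all transcript clusters r was between 0.9948 and 0.9972 for arrays of 1 group. As a background level, the median of 5222 negative control probe sets lay between 6.47 and 6.83 on the 16 arrays, and a gene was taken as not well above background in a group when both of its arrays were at or below that median. Markers of fibroblasts fitted the label, since 9 of 10, among them Col1a1 and Pdgfrb, exceeded that level on all 16 arrays, with Lum as the exception. Of 8 melanocyte markers, 7 were above it on no array, Tyr, Dct, Pmel and Sox10 among them, and Mlana was above it on all. Of 8 macrophage markers, 5, including Ptprc, Adgre1 and Csf1r, were above it on no array. Lyz2 and Cd14 were above it on 13 arrays each, and Cd68 on all 16. No mast cell or keratinocyte marker was above it on any array. This median is a low bar, since the 95th percentile of the negative controls lay between 10.35 and 10.79. On an array, 22.9% to 27.1% of all transcript clusters exceeded that percentile. Mlana and Tfec reached at most 9.33 and 8.89, below it. A signal above the median alone therefore does not establish expression. The number of arrays limits the precision: at the median standard error (0.187 log2 units) a 95% interval reached 0.40 to each side of a difference.

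The stretches before the annotated starts of Mitf and Tfec are printed here because these were the members whose signals differed between treatments, and that of Mcoln1 as an example of a CLEAR gene that rose in all 6 conditions, a choice made after its values were seen. Sequences and positions are from RefSeq for GRCm38.p6. They run from 5′ to 3′ on the strand of the gene, over the 250 bases before a start, less those that lie inside the annotated gene. Capitals mark matches, on either strand, to 4 motifs: the E-boxes CACGTG and CATGTG, the cyclic AMP response element TGACGTCA, and TGACNNNGC.
Mitf, outermost start, chr6:97806808-97807001, plus strand: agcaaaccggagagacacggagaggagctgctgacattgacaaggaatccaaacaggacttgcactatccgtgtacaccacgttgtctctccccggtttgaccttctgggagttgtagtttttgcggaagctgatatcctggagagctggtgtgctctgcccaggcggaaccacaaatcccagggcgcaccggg
Mitf, middle start, chr6:97929567-97929816, plus strand: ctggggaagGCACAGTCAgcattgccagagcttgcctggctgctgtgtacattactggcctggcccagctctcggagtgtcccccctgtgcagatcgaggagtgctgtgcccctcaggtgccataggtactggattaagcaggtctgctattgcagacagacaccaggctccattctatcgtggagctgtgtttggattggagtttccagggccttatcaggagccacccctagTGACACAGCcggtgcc
Mitf, innermost start, chr6:97991533-97991782, plus strand: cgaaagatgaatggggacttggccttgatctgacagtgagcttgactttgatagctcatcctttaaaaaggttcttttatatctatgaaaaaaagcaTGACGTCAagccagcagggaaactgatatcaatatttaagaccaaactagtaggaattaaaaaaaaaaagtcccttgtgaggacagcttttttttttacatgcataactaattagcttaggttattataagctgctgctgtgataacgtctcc
Tfec, chr6:16898465-16898691, minus strand: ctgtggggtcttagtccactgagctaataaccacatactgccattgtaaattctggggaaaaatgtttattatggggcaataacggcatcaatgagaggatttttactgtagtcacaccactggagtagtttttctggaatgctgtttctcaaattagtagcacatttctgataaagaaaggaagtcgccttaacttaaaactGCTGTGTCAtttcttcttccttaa
Mcoln1, chr8:3500269-3500518, plus strand: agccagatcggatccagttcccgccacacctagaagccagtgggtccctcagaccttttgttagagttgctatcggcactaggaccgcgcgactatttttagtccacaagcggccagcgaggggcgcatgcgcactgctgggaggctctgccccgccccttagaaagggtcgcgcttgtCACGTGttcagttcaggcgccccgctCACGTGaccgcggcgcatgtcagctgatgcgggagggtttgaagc
TGACGTCA was found in the innermost Mitf window, and 1.55% of 32851 such windows of 250 bases hold it. TGACNNNGC was found at 2 places in the middle Mitf window and at 1 place in that of Tfec, with matches in 10.2% of all windows. CACGTG occurs at 2 places in the Mcoln1 window and in 6.02% of all windows, and neither it nor CATGTG (12.3% of all windows) was found in any of the 9 windows of the 4 MiT genes. Another CLEAR gene called higher in all 6 conditions was Neu1, whose call with 60 µM K was lost whichever compared array was left out. The Neu1 window held no match to any of the 4 motifs and is not printed. These matches describe the letters alone. The array gives 1 value for Mitf, annotated on chromosome 6 from 97807002 to 98021360, so that transcripts from its 3 starts cannot be told apart. Tfec lies on the same chromosome from 16830927 to 16898464 on the opposite strand.

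Mitf was higher in every condition that contained K and in none with G alone. The log2 signals of Mitf were 10.21 and 10.38 in 0.05% DMSO and 10.17 and 10.11 in 0.1% DMSO. With G they were 10.31 and 10.64 at 60 µM and 9.98 and 10.31 at 120 µM. With K they were 11.31 and 11.31 at 60 µM and 11.68 and 11.37 at 120 µM. The 4 K arrays were all above the 4 DMSO arrays and the 4 G arrays, while the G arrays overlapped with DMSO. In the mixture the signals were 11.38 and 11.54 at 60 µM and 11.61 and 11.65 at 120 µM, also above every DMSO and G array.

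**Figure D1:**
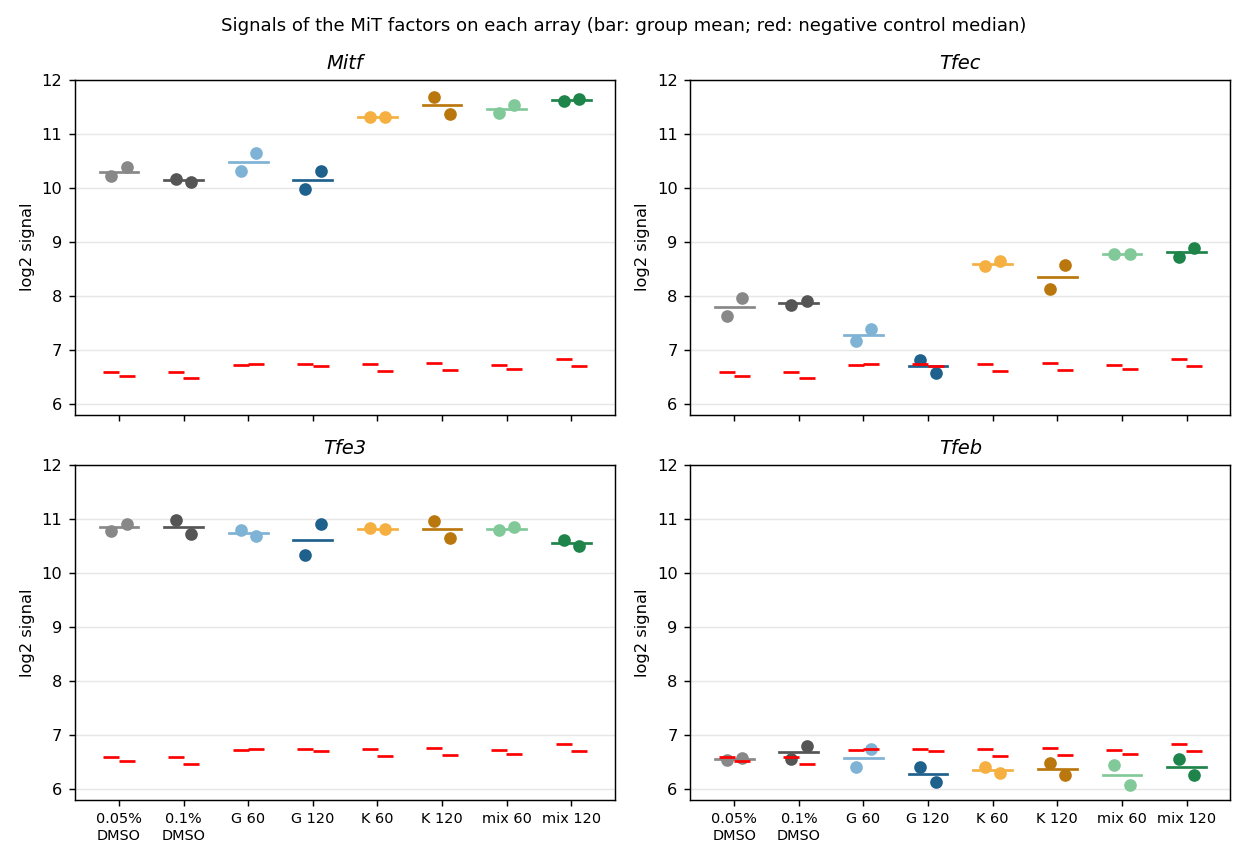
Log2 signals of the 4 MiT genes (vertical axes, the same scale in each panel) on the 2 arrays of each of the 8 groups (horizontal axes, concentrations in µM), with a bar at the group mean and red marks at the negative control median of each array. Mitf and Tfec lie higher with K and with the mixtures than in DMSO, Tfec lies lower with 120 µM G, Tfe3 stays between 10.33 and 10.98, and Tfeb stays near the negative control median.

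Compared with 0.05% DMSO, Mitf rose 2.02-fold with 60 µM K (log2 fold change 1.01, standard error 0.16, adjusted p = 0.00111 by limma) and 2.35-fold with 120 µM K (log2 1.23, adjusted p = 0.000122). Compared with 0.1% DMSO, it rose 2.50-fold with the 60 µM mixture (adjusted p = 9.29e-05) and 2.81-fold with the 120 µM mixture (adjusted p = 2.56e-05). These 4 calls held when any single array was left out. Against the background, 10.1% of all transcript clusters changed in either direction with 60 µM K, 17% with 120 µM K, 17.8% with the 60 µM mixture and 19.6% with the 120 µM mixture. With G alone Mitf did not pass the test, and its 95% intervals ran from 0.886 to 1.44-fold at 60 µM (adjusted p = 0.583) and from 0.706 to 1.15-fold at 120 µM (adjusted p = 0.642). The share of negative control probe sets dimmer than Mitf was 96.8% to 97.7% on the K and mixture arrays and 92.0% to 94.7% on the DMSO and G arrays. Mlana, the 1 melanocyte marker above the negative control median on any array, did not pass the test with K or with the mixtures. In cultures measured in bulk, more cells with Mitf and more Mitf RNA per cell cannot be told apart.

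Tfec went in opposite directions with the 2 flavonoids. Its log2 signals were 7.63 and 7.95 in 0.05% DMSO and 7.82 and 7.90 in 0.1% DMSO. They were 7.17 and 7.38 with 60 µM G and 6.81 and 6.58 with 120 µM G, where 1 of 2 arrays was at or below the negative control median. With K they were 8.54 and 8.64 at 60 µM and 8.13 and 8.57 at 120 µM. All G arrays of Tfec were below, and all K arrays above, the range of the DMSO arrays. The mixtures gave 8.77 and 8.78 at 60 µM and 8.72 and 8.89 at 120 µM, above every DMSO and every single-compound array.

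Tfec was a dim probe throughout: the share of negative control probe sets dimmer than it was 68.3% to 75.4% on the DMSO arrays, 47.8% to 61.5% with G, and 73.2% to 84.9% with K and the mixtures. With 120 µM G Tfec fell relative to 0.05% DMSO (log2 fold change -1.09, standard error 0.17, adjusted p = 0.000535 by limma). With the dimmer of the 2 G arrays set at its negative control median this was at least 2.04-fold, beside 15.7% of all transcript clusters that changed in either direction there. With 60 µM G its log2 fold change was -0.52 (95% interval -0.88 to -0.15, adjusted p = 0.0849), short of the threshold, where 8.33% of transcript clusters changed. By fold change alone it would count as lower there, as 7.48% of transcript clusters did with a ratio below 0.7. Tfec rose 1.74-fold with 60 µM K (adjusted p = 0.0081), 1.47-fold with 120 µM K (adjusted p = 0.0381), 1.89-fold with the 60 µM mixture (adjusted p = 0.0023) and 1.92-fold with the 120 µM mixture (adjusted p = 0.00155). Both calls with K alone rested on single arrays. At 60 µM K the adjusted p was 0.0661 without the second K array and 0.0909 without the first 0.05% DMSO array, and at 120 µM K it was 0.288 and 0.26, with the log2 fold change down from 0.56 to 0.34 and 0.40. The mean signal of the 8 macrophage markers, of which 5 were above the negative control median on no array, was 6.15 to 6.28 in DMSO, 6.49 to 6.70 with G, 5.90 to 6.23 with K and 6.08 to 6.21 in the mixtures. Without Cd68, a lysosomal membrane protein, it was 5.82 to 5.89, 5.82 to 6.03, 5.45 to 5.92 and 5.62 to 5.70. Cd68 rose with 60 µM G (log2 fold change 1.87, adjusted p = 0.000118), 120 µM G (3.05, adjusted p = 4.65e-07), 60 µM K (0.70, adjusted p = 0.0406) and the 60 µM mixture (0.77, adjusted p = 0.017). Lyz2 fell with 60 µM K (-1.21, adjusted p = 0.000871) and 120 µM K (-1.48, adjusted p = 8.97e-05) and did not pass the test with G or the mixtures. The part of macrophages in the Tfec values was not tested.

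**Figure D2:**
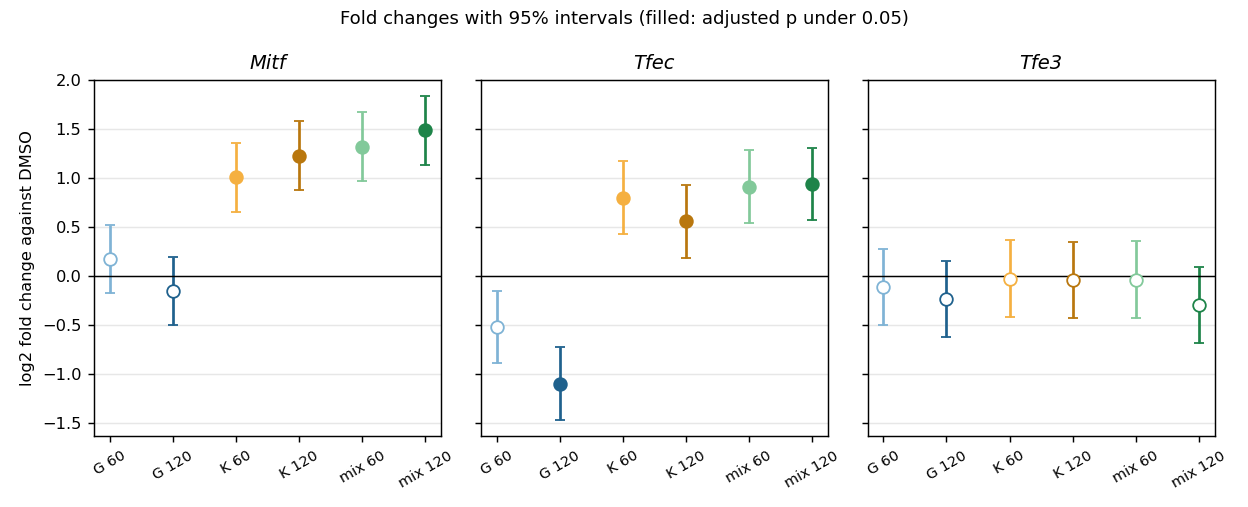
Log2 fold changes of Mitf, Tfec and Tfe3 against DMSO (vertical axis; 0.05% DMSO for G and K, 0.1% DMSO for the mixtures) with 95% intervals from the limma fit, for the 6 conditions (horizontal axis, µM). Filled points passed the test: Mitf in the 4 conditions with K, Tfec in those 4 and, downwards, in 120 µM G, and Tfe3 in none. Tfeb is left out because it was not well above background in any treated group.

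For Tfe3 and Tfeb no condition passed the test, nor did any other of the 20 comparisons run on each member (conditions, doses, compounds, solvents and their differences). The log2 signals of Tfe3, the broadly expressed member, lay between 10.72 and 10.98 on the 4 DMSO arrays and between 10.33 and 10.96 on the 12 flavonoid arrays. The ranges overlapped, and the widest gap within a group was that of 120 µM G, with 10.33 and 10.90. Its fold changes against DMSO ran from 0.817 with the 120 µM mixture, where both arrays were below both 0.1% DMSO arrays (95% interval 0.624 to 1.07, adjusted p = 0.294 by limma), to 0.984 with 60 µM K (95% interval 0.751 to 1.29, adjusted p = 0.968). Changes of Tfe3 within such intervals were not detectable with 2 arrays a group.

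Tfeb, the member for which the lysosomal programme was first described, gave log2 signals between 6.53 and 6.80 on the 4 DMSO arrays and between 6.08 and 6.73 on the 12 flavonoid arrays. It was above the negative control median on 2 of the 16 arrays, 1 in each DMSO group, and not well above background in any treated group. No fold change is given for it, and its smallest adjusted p among the 6 conditions was 0.14, with the 60 µM mixture. Whether its mRNA changed below this level was not detectable here.

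The 2 compounds and their mixture were compared directly at matched total concentrations, in 6 pairs per member, and p was adjusted over all 22206 transcript clusters. With 60 µM K, Mitf was 1.78-fold above its level with 60 µM G (log2 difference 0.83, 95% interval 0.48 to 1.18, adjusted p = 0.00704 by limma), where 8.17% of all transcript clusters differed. At 120 µM it was 2.61-fold higher with K (log2 1.38, 95% interval 1.03 to 1.73, adjusted p = 0.000101), where 9.78% differed. The call at 60 µM was lost without the first G array (0.67, adjusted p = 0.0613) and without the first K array (adjusted p = 0.0518), and the call at 120 µM held without any single array. Tfec exceeded its level with G 2.49-fold at 60 µM K (log2 1.32, adjusted p = 0.000392) and at least 3.01-fold at 120 µM K (log2 1.65, adjusted p = 3.39e-05, the bound set as before), and both calls held without any single array. For Tfe3 and Tfeb no difference between K and G passed the test, and the 95% interval for Tfe3 was -0.31 to 0.47 at 60 µM and -0.20 to 0.58 at 120 µM on the log2 scale.

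The mixture differed from G in the same members. Mitf was 1.98-fold higher in the 60 µM mixture than in 60 µM G (adjusted p = 0.00307 by limma; 7.35% of transcript clusters differed) and 2.79-fold higher at 120 µM (adjusted p = 8.6e-05; 7.33% differed). Tfec was 2.83-fold higher in the first pair (adjusted p = 0.000166) and at least 4.13-fold higher in the second (log2 2.11, adjusted p = 7.1e-06). Between the mixture and K no member passed the test, among 0.0901% of transcript clusters that did at 60 µM and 0.684% at 120 µM. For Mitf the log2 difference between mixture and K was 0.16 at 60 µM (95% interval -0.20 to 0.51) and 0.10 at 120 µM (-0.25 to 0.45). For Tfec it was 0.18 at 60 µM (-0.19 to 0.55) and 0.46 at 120 µM (0.09 to 0.82, unadjusted p = 0.0194, adjusted p = 0.293). At 120 µM the 2 mixture arrays of Tfec lay above both K arrays.

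**Figure D3:**
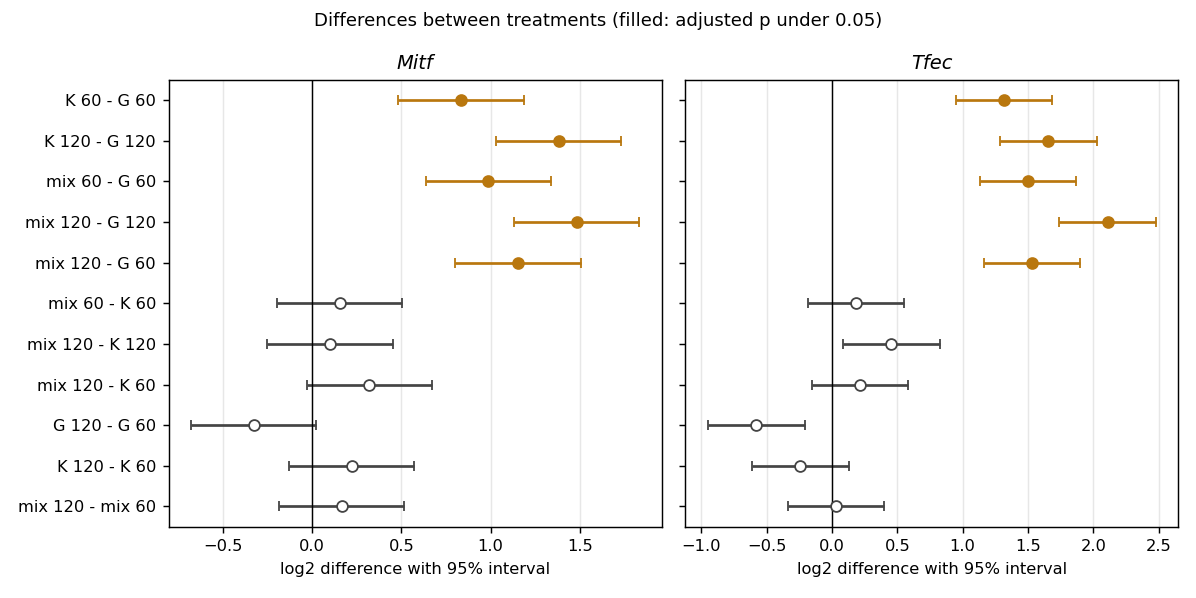
Log2 differences between treatments for Mitf and Tfec (horizontal axes) with 95% intervals from the limma fit, 1 row for each pair (concentrations in µM). Filled points, which passed the test, are the 5 pairs of K or a mixture against G, and open points are the 3 pairs of a mixture against K and the 3 dose steps.

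The 120 µM mixture holds the same 60 µM of G as the culture with G alone and adds 60 µM K. Against 60 µM G, Mitf was 2.23-fold higher in it (adjusted p = 0.000749 by limma; 6.98% of transcript clusters differed) and Tfec 2.89-fold higher (adjusted p = 0.000126). Set against 60 µM K, to which it adds 60 µM G, neither passed the test: Mitf differed by 0.32 on the log2 scale (95% interval -0.03 to 0.67) and Tfec by 0.21 (-0.16 to 0.58), where 0.455% of transcript clusters differed. The departure of the 120 µM mixture from the sum of the log2 changes with 60 µM G and 60 µM K was 0.30 for Mitf (95% interval -0.40 to 1.00) and 0.66 for Tfec (-0.08 to 1.40), and neither passed the test (adjusted p = 0.802 and 0.55; 0.0405% of transcript clusters did). The control of the mixture is 0.1% DMSO and that of the single compounds 0.05% DMSO, so that the solvents enter this sum.

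No dose step passed the test for any member. From 60 to 120 µM G, where 3.54% of transcript clusters changed, the log2 signal of Tfec differed by -0.58 (95% interval -0.95 to -0.21, unadjusted p = 0.00468, adjusted p = 0.0853 by limma), and both arrays at 120 µM were below both at 60 µM. Mitf differed by -0.33 over the same step (-0.68 to 0.02, adjusted p = 0.327). From 60 to 120 µM K the differences were 0.22 for Mitf (-0.13 to 0.57) and -0.24 for Tfec (-0.61 to 0.13), where 0.266% of transcript clusters changed. From the 60 to the 120 µM mixture they were 0.17 (-0.19 to 0.52) and 0.03 (-0.34 to 0.40), and none of 22206 transcript clusters changed in that step at this threshold by limma, 1179 of them with an unadjusted p under 0.05. The dose step of K exceeded that of G by 0.55 for Mitf (0.05 to 1.05, unadjusted p = 0.0329, adjusted p = 0.382), where 0.0315% of transcript clusters passed the test. Between the 2 solvents no member passed the test either, with 0.0045% of transcript clusters called, and the log2 difference was -0.16 for Mitf (-0.51 to 0.19) and 0.07 for Tfec (-0.30 to 0.44).

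By group means, the order of Mitf was 0.1% DMSO (10.14), 120 µM G (10.15), 0.05% DMSO (10.30), 60 µM G (10.47), 60 µM K (11.31), the 60 µM mixture (11.46), 120 µM K (11.53) and the 120 µM mixture (11.63). The step between 60 µM G and 60 µM K was the only one between neighbours that passed the test among those compared. The order of Tfec was 120 µM G (6.69), 60 µM G (7.27), 0.05% DMSO (7.79), 0.1% DMSO (7.86), 120 µM K (8.35), 60 µM K (8.59), the 60 µM mixture (8.77) and the 120 µM mixture (8.80). Here no neighbours that were compared differed by the test, the 2 G groups included. Mitf and Tfec correlated with r = 0.855 over the 8 group means and 0.826 over the 16 arrays, which share their treatments and normalisation, and the other 5 pairs of members had r between -0.542 and 0.354 over the group means.

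**Figure D4:**
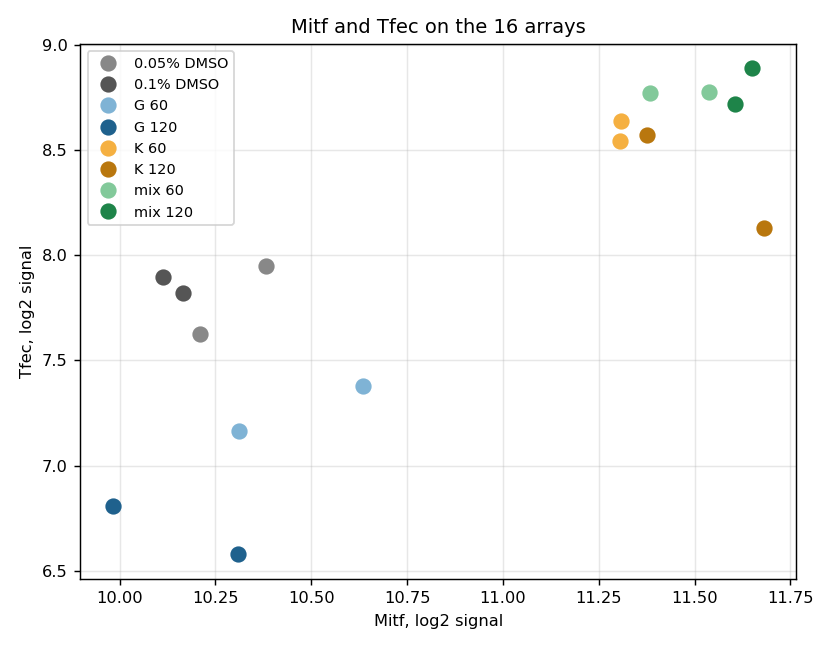
Log2 signal of Tfec (vertical axis) against that of Mitf (horizontal axis) on the 16 arrays, coloured by group. The 8 K and mixture arrays lie apart at the upper right, the DMSO arrays between 10.11 and 10.38 for Mitf, and the G arrays between 9.98 and 10.64 for Mitf, with lower Tfec than DMSO.

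Of 1052 transcript clusters that were above background in at least 1 group and spanned at least as many log2 units as Mitf, the 5 closest to it over the 8 group means were Dtx4 (r = 0.991), Plxnd1 (0.988), a semaphorin receptor, Lpl (0.984), lipoprotein lipase, Adh7 (0.982), an alcohol dehydrogenase, and Lacc1 (0.980). Among 367 such clusters the closest to Tfec were Adam12 (0.989), a metalloprotease, Ampd3 (0.981), AMP deaminase, Olfml2b (0.978), Fam64a (0.960) and Igfbp5 (0.949), an insulin-like growth factor binding protein. For Tfe3, whose group means spanned 0.29 log2 units, 10728 clusters were compared, and r was 0.967 for Syt12 and 0.947 for Sf3b4, a splicing factor, while over the 16 arrays it was 0.679 and 0.555. The correlations describe likeness over groups that share the same 16 arrays.

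Genes of the CLEAR network, the set known to be bound by MiT factors, were followed in 4 lists with 56 measured genes, of which 54 were above background in at least 1 group. In each of the 6 conditions some of them rose and more than that did not pass the test. Of the 56, 14 rose and 1 fell with 60 µM G, 23 rose and 1 fell with 120 µM G, 9 rose and 0 fell with 60 µM K, and 15 rose and 1 fell with 120 µM K. In the mixtures 17 rose and 0 fell at 60 µM, and 19 rose and 1 fell at 120 µM. Against 0.05% DMSO, the solvent that the labels give for all treated cultures, 12 and 14 were called with the mixtures in either direction. The shares that rose among all transcript clusters were 3.84%, 7.94%, 5.72%, 8.98%, 9.24% and 10.1% in this order of conditions, with 4.49%, 7.8%, 4.4%, 8%, 8.57% and 9.48% that fell. These shares include dim clusters, since 47.9% to 51.5% of all clusters exceeded the negative control median on an array. They are therefore no background of like brightness for the CLEAR genes, and an excess over it was not tested. Shares over all transcript clusters given elsewhere include the same dim clusters. The median log2 fold change of the 56 genes was 0.32, 0.39, 0.16, 0.24, 0.32 and 0.26 in the same order, beside -0.04 to 0.01 over all transcript clusters. The counts depended on single arrays. Without any 1 of the 4 arrays compared, 6 to 9 genes were called in either direction with 60 µM G, 17 to 20 with 120 µM G, 2 to 6 with 60 µM K and 8 to 11 with 120 µM K. With the mixtures 9 to 10 were called at 60 µM and 11 to 12 at 120 µM without either mixture array or the second 0.1% DMSO array, and 17 and 20 without the first 0.1% DMSO array. By role, 7 of 19 lysosomal hydrolases and activators rose with 120 µM G and 5 with 120 µM K, as did 4 and 4 of 10 lysosomal membrane proteins, 6 and 1 of 15 subunits of the vacuolar proton pump, and 6 and 5 of 12 autophagy genes. The differences between these counts were not tested.

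**Figure D5:**
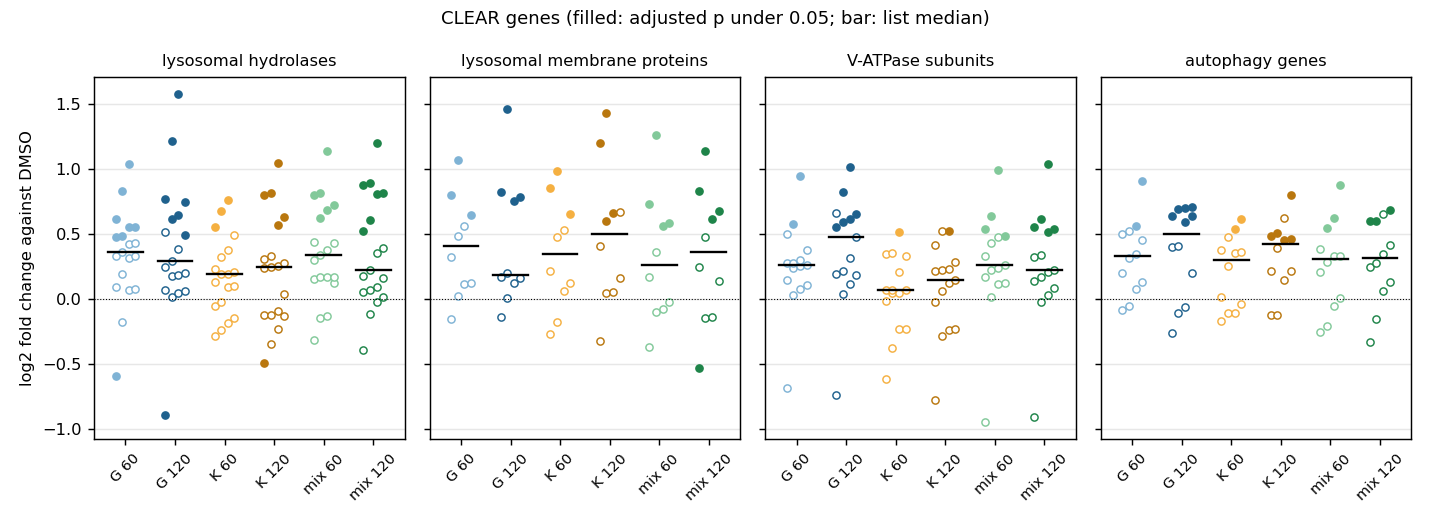
Log2 fold change against DMSO (vertical axis) of each CLEAR gene in 4 lists (panels) under the 6 conditions (horizontal axes, µM). Filled points passed the test by limma, bars are list medians, and every list median lies above 0.

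Mcoln1, the lysosomal calcium channel TRPML1 and a CLEAR gene, rose in all 6 conditions. Its log2 signals were 12.79 and 12.74 in 0.05% DMSO and 12.90 and 12.49 in 0.1% DMSO, and between 13.64 and 14.37 on the 12 flavonoid arrays, with no overlap. The fold changes were 2.10 and 2.75 with 60 and 120 µM G, 1.99 and 2.69 with K, and 2.40 and 2.20 with the mixtures, and the largest adjusted p was 0.0019 (limma). Ctns, the lysosomal cystine transporter, also rose in all 6 conditions and did so most with 120 µM K (log2 fold change 1.20, adjusted p = 5.08e-05). Neu1, lysosomal sialidase, rose by 1.58 log2 units with 120 µM G (adjusted p = 2.33e-05), 0.82 with 120 µM K (adjusted p = 0.00382) and 1.20 with the 120 µM mixture (adjusted p = 0.000221). Atp6v1a, the catalytic subunit of the vacuolar proton pump, rose 2.02-fold with 120 µM G (adjusted p = 0.000373), and Sqstm1, the autophagy receptor p62, 1.74-fold with 120 µM K (adjusted p = 0.000454). Gusb, beta-glucuronidase, fell with 120 µM G (0.540-fold, adjusted p = 0.000723), the 1 CLEAR gene that was lower there.

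Set directly against G, K gave lower signals for 6 of the 56 CLEAR genes and higher ones for 0 at 60 µM, and lower for 7 and higher for 1 (Gusb) at 120 µM. Mitf and Tfec were higher with K in both comparisons, and a relation between them and these counts was not tested. Over all transcript clusters 3.39% were lower and 4.78% higher with K at 60 µM, and 4.57% lower and 5.21% higher at 120 µM. Without any 1 of the 4 arrays compared these counts fell, to 0 to 3 genes at 60 µM (0 without the first K array) and 2 to 5 at 120 µM (2 without the second G or the first K array). Uvrag, an autophagy regulator, was 0.627 of the G level at 60 µM (adjusted p = 0.00838 by limma), a call that was lost without 1 of the 4 arrays compared (adjusted p = 0.0723). Neu1 was 0.590 of the G level at 120 µM (adjusted p = 0.0105), and 2 of the 4 such omissions ended the call.

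Among 7 targets through which MiT factors feed back on mTORC1 and themselves, 1 of 7 rose with 60 µM G and 2 of 7 with 120 µM G, where 3.84% and 7.94% of all transcript clusters rose. Fnip1, a partner of folliculin, rose 1.59-fold with 60 µM G (adjusted p = 0.0137 by limma) and 1.65-fold with 120 µM G (adjusted p = 0.00399), though the first was lost in 3 and the second in 1 of the 4 fits that left out 1 array. Rragd, a GTPase that recruits mTORC1 to the lysosome, rose 1.83-fold with 120 µM G (adjusted p = 0.029), a call lost in 3 of 4 such fits. With K or the mixtures 0 of 7 passed the test, but neither Fnip1 nor Rragd differed by the test between K and G (adjusted p = 0.327 and 0.185 for Fnip1, 0.953 and 0.255 for Rragd at 60 and 120 µM). Flcn, folliculin, named here after its value was seen, was lower with 120 µM K than with 120 µM G (0.524-fold, adjusted p = 0.00397, at most 0.0336 without any single array). Its log2 signals were 11.20 and 11.25 with K and 12.14 and 12.18 with G, against 11.92 and 11.50 in 0.05% DMSO.

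Of 25 genes that set where MiT factors reside in the cell, among them subunits of mTORC1, Rag GTPases and 14-3-3 proteins, 0 passed the test with 60 µM G, 4 rose with 120 µM G, 1 rose with 60 µM K, 2 rose and 2 fell with 120 µM K, 2 rose with the 60 µM mixture, and 5 rose and 2 fell with the 120 µM mixture. Over all transcript clusters 3.84%, 7.94%, 5.72%, 8.98%, 9.24% and 10.1% rose in this order, and 4.49%, 7.8%, 4.4%, 8%, 8.57% and 9.48% fell, so that several of these counts are near the background. The list median ran from 0.02 to 0.15. The falls were those of Ywhab and Lamtor3 with 120 µM K and of Xpo1 and Akt1 with the 120 µM mixture. Slc38a9, an amino acid sensor of the lysosome, rose 1.73-fold with 120 µM K (adjusted p = 0.00278 by limma). Lamtor2, a subunit of the Ragulator complex, rose 1.86-fold with the 120 µM mixture (adjusted p = 0.00331). Mtor, the kinase itself, rose with 60 µM K (adjusted p = 0.00762) and in 3 further conditions, and each of its 4 calls was lost in 2 or more of the 4 fits without 1 array.

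The pigment cell genes known as targets or regulators of Mitf in melanocytes were mostly silent: 5 of 16 were above background in at least 1 group. Of the 16, 1 rose and 1 fell with 60 µM G, 1 rose and 3 fell with 120 µM G, 2 rose with 60 µM K, 1 rose with 120 µM K, and 1 and 2 fell with the mixtures of 60 and 120 µM. The falls with the mixtures were those of Slc45a2 with both and of Kit at 120 µM. Neither gene was well above background in the mixtures or in 0.1% DMSO, so that these falls lie at background. Over all transcript clusters 3.84% to 10.1% rose and 4.4% to 9.48% fell in the 6 conditions. The list median lay between -0.21 and 0.06. Ednrb, the endothelin receptor B, was among the 5. Its log2 signals were 9.15 and 9.04 in 0.05% DMSO, 6.83 and 6.77 with 60 µM G, 6.05 and 5.50 with 120 µM G, 10.27 and 10.76 with 60 µM K, and 9.44 and 9.79 with 120 µM K. All 4 G arrays were far below DMSO and those of 120 µM G were not well above background, while both arrays of 60 µM K were above all DMSO arrays. The 60 µM G arrays were 0.10 and 0.04 log2 units above their negative control medians, so that ratios against them rest on a level close to background. Ednrb fell to 0.203 of DMSO with 60 µM G (adjusted p = 0.000159 by limma), was at least 5.20-fold lower with 120 µM G (adjusted p = 1.56e-06), and rose 2.67-fold with 60 µM K (adjusted p = 0.0027). K against G gave a ratio of 13.1 at 60 µM (adjusted p = 2.2e-06) and a level at least 7.42-fold higher at 120 µM (adjusted p = 1e-06), the same direction as for Tfec. In the mixtures it did not pass the test.

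Lef1, a Wnt effector that regulates and partners with Mitf in melanocytes, rose with K alone. Its log2 signals were 6.46 and 6.73 in 0.05% DMSO, where 1 of 2 arrays was above the negative control median, and 7.72 and 7.75 with 60 µM K and 8.24 and 8.16 with 120 µM K. It rose by 1.14 (adjusted p = 0.000816 by limma) and 1.61 log2 units (adjusted p = 2.46e-05). With 120 µM G, Lef1 was called lower (adjusted p = 0.027), from a DMSO level close to background. That call was lost in 3 of the 4 fits without 1 array. With the mixtures, in which Mitf rose as well, the signals were 6.51 and 6.49 at 60 µM and 6.57 and 6.56 at 120 µM, not well above background and within the range of the DMSO arrays, and Lef1 was at least 2.71-fold lower in the 120 µM mixture than with 120 µM K (adjusted p = 0.00152). Mlana, a melanosome protein, fell with 120 µM G (0.449-fold, adjusted p = 0.00267) and in no other condition. Pax3, of the same pigment cell list, rose with G, by 1.53-fold at 60 µM (adjusted p = 0.0154 by limma) and 1.40-fold at 120 µM (adjusted p = 0.0284). Both Pax3 calls depended on single arrays, and Pax3 did not pass the test with K or the mixtures.

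Of 5 genes that Mitf and Tfe3 activate in osteoclasts, 3 were above background and 1 rose in each of the 6 conditions, a list too short to set against the 3.84% to 10.1% of all transcript clusters that rose. Ostm1, a partner of the lysosomal chloride channel, rose 1.93-fold with 60 µM G (adjusted p = 0.00299 by limma), 2.41-fold with 120 µM G (adjusted p = 9.66e-05) and 1.75-fold with the 120 µM mixture (adjusted p = 0.00301). With the 60 µM mixture its call (adjusted p = 0.0323) was lost in 3 of the 4 fits without 1 array. Ctsk, the protease cathepsin K, rose with K, with log2 signals between 15.39 and 15.61 on the 4 K arrays and between 14.41 and 14.89 in 0.05% DMSO. Its adjusted p was 0.0216 at 60 µM and 0.0194 at 120 µM, and both calls were lost in 3 of the 4 fits without 1 array.

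Among 14 other factors that bind E-boxes or repress CLEAR genes, 1 to 4 rose and 1 or 2 fell in each condition, where 3.84% to 10.1% of all transcript clusters rose and 4.4% to 9.48% fell. The list median lay between 0.06 and 0.19. Bhlhe41, a circadian repressor that binds CACGTG, rose in the 4 conditions with K, as Mitf did. Its log2 signals were 9.71 and 9.73 in 0.05% DMSO and 9.80 and 9.74 in 0.1% DMSO, between 9.85 and 10.00 with G, and between 11.27 and 11.78 on the K and mixture arrays. The K and mixture arrays did not overlap with the others. Bhlhe41 rose 3.62- and 4.00-fold with 60 and 120 µM K (adjusted p = 1.38e-06 and 2.83e-07 by limma) and 3.01-fold with each mixture (adjusted p = 3.51e-06 and 2.38e-06), and did not pass the test with G (adjusted p = 0.429 and 0.37). Set directly against G, it was higher with K at 60 µM (adjusted p = 5.51e-06) and 120 µM (adjusted p = 1.8e-06). Arntl, the circadian activator Bmal1, fell to 0.498 with 60 µM K (adjusted p = 0.00054), and its calls with 120 µM K (adjusted p = 0.00608) and the 60 µM mixture (adjusted p = 0.0082) were each lost in 2 of the 4 fits without 1 array. Foxo3, a forkhead factor that also induces autophagy genes, rose in all 6 conditions, from 1.67-fold with 60 µM K (adjusted p = 0.00261) to 2.51-fold with 120 µM G (adjusted p = 1.39e-05). Myc, an E-box factor that can oppose MiT factors at lysosomal genes, fell with 60 µM G (0.406-fold, adjusted p = 0.00243) and did not pass the test in the other 5 conditions. Usf2, also of this list, fell to 0.611 with 120 µM G (adjusted p = 0.00297 by limma). It fell to 0.622 with the 60 µM mixture (adjusted p = 0.00405) and 0.605 with the 120 µM mixture (adjusted p = 0.00237). These calls of Usf2 held without any single array, and it did not pass the test with 60 µM G or with K.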

How the data were processed

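RNA of 16 cultures was hybridised to Clariom S mouse arrays. The submitters' processing notes name the Transcriptome Analysis Console, the Affymetrix Expression Console and RMA. The authors deposited log2 signals (named sst-rma in the workbook's columns) normalised across arrays, with software versions, genome build and annotation release not given in the sources used here. Both deposited tables, with 28846 probe sets of which 22206 are annotated transcript clusters, differed by at most 5e-05, and the values of the one without gene annotation were used. The methods speak of 3 biological replicates, while 2 arrays per group were analysed here.

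Groups were compared in a single linear model of the 8 group means (limma 3.58.1, R 4.3.3) over the 16 arrays, with moderated errors from 8 residual and 5.81 prior degrees of freedom. Benjamini-Hochberg adjustment covered the 22206 annotated clusters. An adjusted p under 0.05 counted as changed. G and K were set against 0.05% DMSO and the mixtures against 0.1% DMSO, following the methods; the labels give 0.05% DMSO for all treated cultures. Intervals are 95% intervals of this fit, and a fold change is 2 raised to a log2 difference. The test was checked on simulated data.

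The members and the gene lists, 9 lists of the pathway and 6 of cell type markers from general knowledge, were chosen with earlier results of these data known. Named list genes come from a pool, or are stated exceptions. The pool holds, in each of the 6 conditions, the 2 largest rises and the 2 largest falls per list that passed the test. Not all of it is named, and Ctsf, Vps8, Galns, Cd63 and Mxi1 are among those left out. Correlated clusters come, for each member above background, from the 5 closest to it over the 8 group means. A gene with several clusters is represented by the brightest. The background rule was chosen after the data were seen. Folds against a group not well above background, or against Tfec with 120 µM G, where 1 of 2 arrays was, are bounds, with that group set per array at the higher of the negative control median and its own signal; no fold is given where the bound fell under 1. Replicate numbers were not treated as pairs. Alternatives for control, block, normalisation, filter, prior, source and samples were run, and those for the CLEAR counts and the named list genes were added after the data were seen. The motif check covered 32851 windows. A comparison of CLEAR promoters was partial, since 40 of 56 CLEAR genes had a window. CACGTG was found in 16 of these 40 (40.0%), beside 6.86% of 27025 genes, and TGACNNNGC in 25.0%, beside 11.5%. CATGTG was found in 12.5%, beside 13.8%, and TGACGTCA in 0%, beside 1.77%. The CLEAR element itself holds the E-box CACGTG, so that its share is no independent result, and no difference was tested.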

Additional observations from a re-analysis of the deposited data

Results flagged for a closer look

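The effects of the 2 compounds on the same gene differed at matched concentrations, by a direct limma test, for Mitf and for Tfec. The log2 fold change of Mitf was larger with K than with G by 0.83 at 60 µM (adjusted p = 0.00704) and by 1.38 at 120 µM (adjusted p = 0.000101). That of Tfec was larger with K by 1.32 at 60 µM (adjusted p = 0.000392) and by 1.65 at 120 µM (adjusted p = 3.39e-05), with the G arrays below and the K arrays above the range of DMSO and 1 of the 2 arrays of 120 µM G at or below the negative control median. The 0.05% DMSO arrays cancel in these differences. The cause was not tested.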

How the results depend on the processing

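Of 24 tests of a member against DMSO 9 passed, and 8 to 10 did under the alternatives, with no change of sign for a called value. Without 1 array the count was 7 to 9. With the replicate block it stayed at 9, and no call of a member changed. Correlations of same-numbered arrays after removal of group means were -0.136 to 0.142 (median 0.014, 28 pairs). No shared effect of the replicate number was thus visible, but the values cannot say whether same-numbered cultures were prepared together. Tfec with 60 µM G passed with 0.1% DMSO as the control (-0.59, adjusted p = 0.0492) and with only clusters above the median signal (-0.52, adjusted p = 0.0322; fewer clusters tested), where Tfeb could not be fitted. Tfec with 120 µM K no longer passed with 0.1% DMSO as the control (0.49, adjusted p = 0.065), with a further quantile normalisation (0.52, adjusted p = 0.053) or with only the compared groups fitted (0.56, adjusted p = 0.144; fewer arrays). The cause was not tested beyond this. Leaving out 1 array gave ranges of 0.67 to 1.00 for Mitf in K against G at 60 µM, 0.64 to 0.96 for Tfec with 60 µM K and 0.34 to 0.78 for Tfec with 120 µM K, where calls were lost.

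The CLEAR counts moved by over 1.5 times in some conditions. With 60 µM G, 120 µM G, 60 µM K, 120 µM K and the 60 and 120 µM mixtures, 15, 24, 9, 16, 17 and 20 were called, 25, 30, 16, 26, 27 and 29 with an intensity trend, and 4, 16, 5, 6, 11 and 12 with only the compared groups fitted. With brighter clusters alone 25 were called with 60 µM G and 26 with the 60 µM mixture. With 0.05% DMSO as their control, 12 and 14 were called with the 60 and 120 µM mixtures. With 0.1% DMSO as the control, 16 and 26 were called with G and 13 and 15 with K. For K against G at 60 and 120 µM, 6 and 8 became 12 and 17 with the trend, 10 and 17 with brighter clusters, and 1 and 0 with the compared groups alone. Without 1 array the lowest counts were 6, 17, 2, 8, 9 and 11 in the 6 conditions. Over 9 lists and 6 conditions, 163 calls became 243 with the trend, 232 with brighter clusters and 163 with the replicate block, and 20, 18 and 3 of the 54 counts moved by over 1.5 times. With 0.05% DMSO as the control, 61 calls with the mixtures became 44, and 6 of 18 counts moved that far. With 0.1% DMSO as the control, 102 calls with G and K became 121, and 11 of 36 counts did. With only the compared groups fitted, the calls over all clusters were 701 in place of 1849 with 60 µM G, 2281 in place of 3495 with 120 µM G, 2509 in place of 3770 with 120 µM K, 2211 in place of 3955 with the 60 µM mixture and 2866 in place of 4350 with the 120 µM mixture. The brightness of the probes limits what can be said of Tfeb and of Tfec with 120 µM G.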
